A study of Mus musculus with 2 samples.

Results

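The microRNAs (miRNAs) described here are 6 mature mouse miRNAs of the miR-99/100 and miR-125 families, namely mmu-miR-99a-5p, mmu-miR-99b-5p, mmu-miR-100-5p, mmu-miR-125a-5p, mmu-miR-125a-3p and mmu-miR-125b-5p, written below without the mouse prefix. They were taken by name from the 1247 mouse miRNAs on the array, and their 14 probes filled 240 of the 49880 miRNA spots on each array. The study hybridised RNA from the peeled knee cartilage of male mice at 8 weeks to 2 one-colour Agilent arrays, 1 for a sample labelled Col2a1Tsc1KO, with the genotype Col2a1; Tsc1 KO, and 1 for a control sample, with the genotype wildtype. The series describes the deletion of Tsc1 as specific to Col2a1, the type II collagen gene of cartilage cells, and ties it to mTORC1, the growth kinase complex that Tsc1 restrains. The number of mice behind each array was not stated, and a miRNA array holds no probe for Tsc1, so the deletion could not be checked here. With 1 array per group there was no replicate check and no test of any difference, and both arrays lay on 1 slide, so position on the slide and genotype cannot be told apart.

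A miRNA guides a silencing complex to mRNAs that pair with its seed, bases 2 to 8 from the 5′ end. The miR-99/100 family has been reported, mainly in human cells, to repress the mRNAs of MTOR and of the insulin-like growth factor receptor IGF1R. The miR-125 family is the mammalian counterpart of lin-4, a timing regulator of larval development in the worm Caenorhabditis elegans, and miR-125b has been reported to repress the aggrecan-cutting protease ADAMTS4 in human cartilage cells. In the mouse genome the families lie beside each other, with a let-7 gene between them, in 3 clusters.

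The mature sequences show which members can share targets and which are hard to tell apart by hybridisation. They are given 5′ to 3′ with the seed in capitals, from RefSeq on build GRCm38.p6, which held all 6 members, all on the plus strand.
miR-99a-5p: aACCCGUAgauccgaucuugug
miR-100-5p: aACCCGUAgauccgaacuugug
miR-99b-5p: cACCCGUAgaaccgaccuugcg
miR-125a-5p: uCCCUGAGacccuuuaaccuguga
miR-125b-5p: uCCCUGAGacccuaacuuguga
miR-125a-3p: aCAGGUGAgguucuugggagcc

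The members fell into 3 seed groups. The miR-99/100 members shared 1 seed, and no other mature mouse miRNA in the RefSeq table held it. With positions counted from 1 at the 5′ end, miR-100-5p differed from miR-99a-5p by the single substitution U16A, outside the seed. miR-99b-5p differed from miR-99a-5p at 4 positions, A1C, U11A, U16C and U21C. The 5p arms miR-125a-5p, of 24 bases, and miR-125b-5p, of 22 bases, shared their first 13 bases. Their seed was also that of miR-351-5p, miR-6367 and miR-6394. The 3p arm miR-125a-3p, cut from the opposite side of the miR-125a hairpin, had a seed of its own.

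By position, miR-99b-5p (chr17:17830194-17830215), let-7e-5p (chr17:17830366-17830387) and miR-125a-5p (chr17:17830817-17830840) lie in a cluster of 692 bases within the span of Spaca6. miR-100-5p (chr9:41531437-41531458) lies with Mirlet7a-2 and Mir125b-1 in a cluster of 50.6 kb within the span of the non-coding host gene Mir100hg. miR-99a-5p (chr16:77598940-77598961) lies with Mirlet7c-1 and Mir125b-2 in a cluster of 47.4 kb that no listed gene spans. miR-125b-5p is cut from both Mir125b-1 (chr9:41581940-41581961) and Mir125b-2 (chr16:77646279-77646300), which the array cannot tell apart.

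The probes of miR-99a-5p and miR-100-5p are shown because they differ by 1 base, given in capitals.
miR-99a-5p, 18 bases: cacaagAtcggatctacg
miR-100-5p, 18 bases: cacaagTtcggatctacg
miR-99a-5p, 19 bases: cacaagAtcggatctacgg
miR-100-5p, 19 bases: cacaagTtcggatctacgg
Each is the reverse complement of the 3′ part of its miRNA, from base 5 or base 4 to base 22. How much of each of these miRNAs binds the other's probe was not tested. The probes of miR-99b-5p had at least 3 mismatches to any other mature mouse miRNA in the RefSeq table at their best ungapped match, those of miR-125a-5p at least 4 and those of miR-125b-5p 5.

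Values below are spot intensities after the scanner software's background subtraction, averaged on the log2 scale over the spots of a probe. For scaling, the 75th percentile of the 476 probes that passed the software's background call on both arrays was set equal between them, a pass meaning that over 50% of a probe's spots were well above background. A difference is Col2a1Tsc1KO minus control on the log2 scale, averaged over such probes of a miRNA, and its standard error (SE) covers spots within the arrays, which is technical noise alone. Intensities of different probes depend on the probe as well as on the amount of miRNA, so the members' levels were not ordered against each other. On the Col2a1Tsc1KO array 21.1% of miRNA spots were well above background and on the control array 19.6%, and no miRNA spot was saturated. The cartilage miRNA miR-140-5p had a scaled intensity of 2713 on the Col2a1Tsc1KO array and 1046 on the control array. Markers of other cell types, given below, were measured too, so this value does not show that the samples held cartilage alone.

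All 5 members that are 5p arms were higher on the Col2a1Tsc1KO array, by 2.26-fold to 2.81-fold, and the 3p arm miR-125a-3p was 1.74-fold lower there. The 5 were thus past 2-fold, the threshold used for counts, of 6 members measured, while 15.6% of the 257 miRNAs measured on both arrays were at least 2-fold higher. Any difference above 0 was found for the same 5 of 6 members and for 40.9% of the 257. No member was at least 2-fold lower, against 17.5% of the 257. The split of all miRNAs past 2-fold, 40 higher and 45 lower, was 59 and 13 with no scaling, while the member count of 5 was the same. That member count was 4 in the log2 values deposited by the authors. It was 2 after normexp background correction with quantile normalization. The members' median log2 difference was 1.32, and that of all 257 miRNAs was -0.22.

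**Figure D1:**
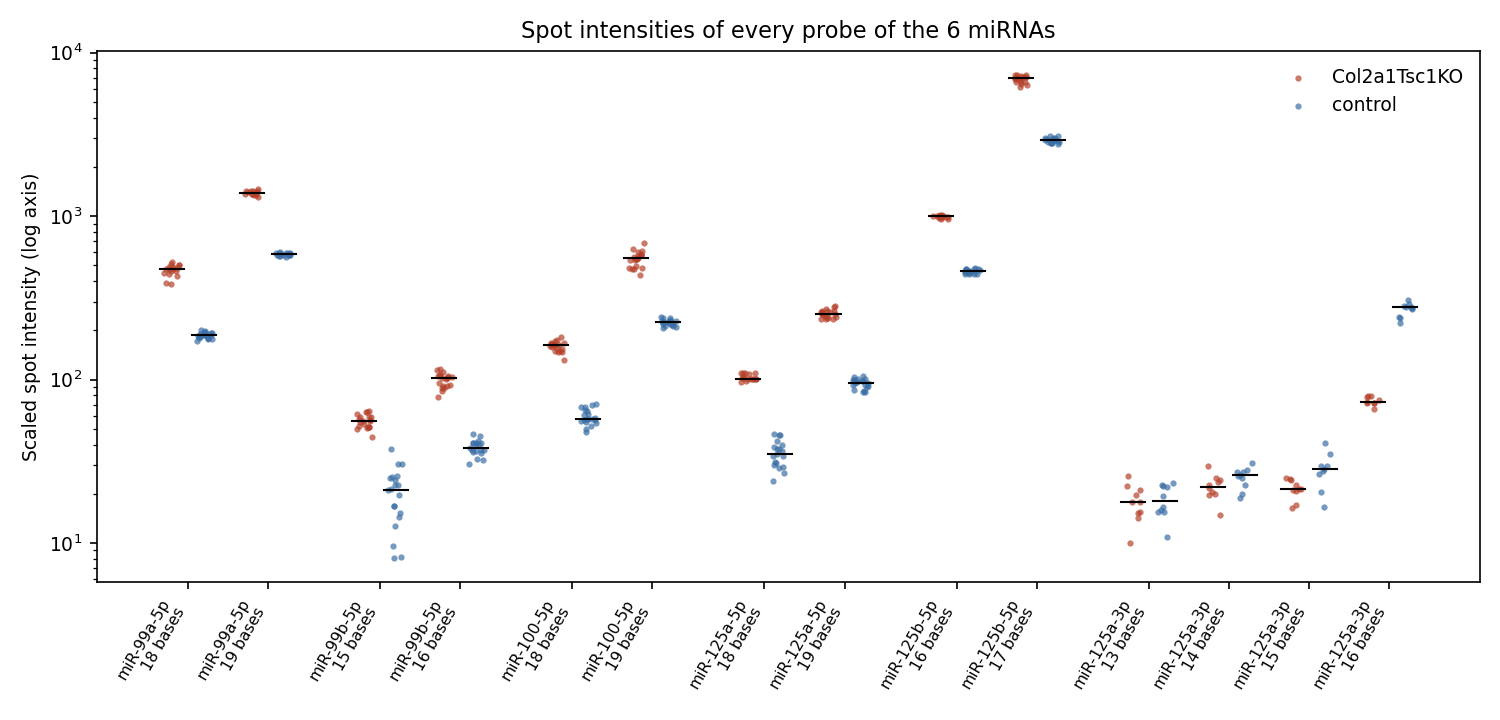
Scaled intensity (log axis) of every usable spot of the 14 probes, with Col2a1Tsc1KO left of control for each probe and a black line at the median. The spots of every probe of a 5p member lie higher on the Col2a1Tsc1KO array, whereas of the 4 miR-125a-3p probes the 16-base probe alone separates the arrays, with lower spots on the Col2a1Tsc1KO array.

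In the miR-99/100 family, miR-99a-5p had scaled intensities of 1384 on the Col2a1Tsc1KO array and 583 on the control array with its 19-base probe. With its 18-base probe it had 466 on the Col2a1Tsc1KO array, with spots between 386 and 524, and 186 on the control array, with spots between 173 and 202. The spots of the arrays did not overlap for either probe. Averaged over both probes the log2 difference was 1.28 ± 0.02 (SE over spots), or 2.44-fold.

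miR-100-5p, which differs from miR-99a-5p by 1 base, had 545 on the Col2a1Tsc1KO array and 223 on the control array with its 19-base probe. With its 18-base probe the values were 159.5 on the Col2a1Tsc1KO array and 59.0 on the control array. Again all spots of the Col2a1Tsc1KO array lay above all spots of the control array. The log2 difference was 1.36 ± 0.03, or 2.57-fold, and it exceeded that of miR-99a-5p by 0.08 ± 0.03.

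miR-99b-5p, the member of the chromosome 17 cluster, was dim. Its 16-base probe had 99.1 on the Col2a1Tsc1KO array and 38.2 on the control array, a log2 difference of 1.38 ± 0.05, or 2.59-fold. Its 15-base probe had 55.5 on the Col2a1Tsc1KO array and 18.8 on the control array. That probe was well above background in 20 of 20 spots on the Col2a1Tsc1KO array and in 5 of 20 on the control array, so it did not enter the average.

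Of the miR-125 family, miR-125a-5p had 253 on the Col2a1Tsc1KO array and 94.6 on the control array with its 19-base probe. Its 18-base probe had 103 on the Col2a1Tsc1KO array and 34.9 on the control array. The spots did not overlap with either probe, and the log2 difference was 1.49 ± 0.04, or 2.81-fold, the highest of the 6 members.

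miR-125b-5p had 6871 on the Col2a1Tsc1KO array and 2906 on the control array with its 17-base probe. Its 16-base probe had 992 on the Col2a1Tsc1KO array and 459 on the control array. The spots were apart on both probes, and the log2 difference was 1.18 ± 0.01, or 2.26-fold. In the authors' deposited table, whose scaling was not stated, miR-125b-5p stood at 11.30 for Col2a1Tsc1KO and 10.68 for control, a difference of 0.62, and was the 1 member among the 5p arms under 2-fold there. With normexp background correction and quantile normalization, 3 members were under 2-fold, with log2 differences of 0.94 for miR-125a-5p, 0.85 for miR-125b-5p and 0.71 for miR-99b-5p.

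Over the 9 probes of the 5p members that were well above background on both arrays, log2 differences ran from 1.11 to 1.56. On all 9 the lowest scaled spot of the Col2a1Tsc1KO array lay above the highest of the control array. In order of their differences the 5p members were miR-125a-5p, miR-99b-5p, miR-100-5p, miR-99a-5p and miR-125b-5p, a span of 0.32. miR-125a-5p exceeded miR-99b-5p by 0.12 ± 0.06, and miR-99b-5p exceeded miR-100-5p by 0.01 ± 0.06, gaps within 2 SE over spots. The steps from miR-100-5p to miR-99a-5p, 0.08 ± 0.03, and from miR-99a-5p to miR-125b-5p, 0.11 ± 0.02, exceeded 2 SE. That SE leaves out disagreement between the probes of a miRNA. The 2 probes gave 1.29 and 1.43 for miR-100-5p, 1.25 and 1.32 for miR-99a-5p, and 1.11 and 1.24 for miR-125b-5p. The order of these members was therefore not settled. The first of these steps turned direction under 1 of 15 alternative ways of processing. The second did so under none of the 15, but it shrank to 0.005 with the brightest or the longest probe alone. Alternatives that only add a constant to all log2 values of an array leave a gap between 2 miRNAs unchanged. The brightest and the longest probe gave the same values for these members.

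**Figure D2:**
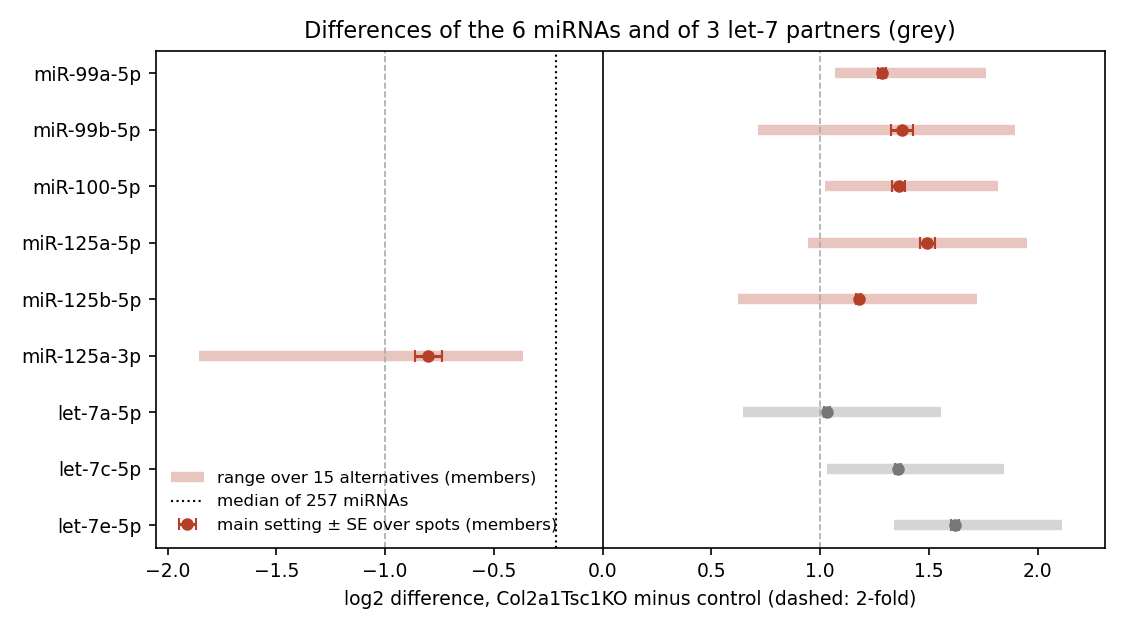
Log2 difference, Col2a1Tsc1KO minus control, of the 6 members (red) and of 3 let-7 miRNAs from the same clusters (grey). Points with bars are the main setting with the SE over spots, wide bars the range over 15 alternatives, dashed lines 2-fold and the dotted line the median of 257 miRNAs, -0.22. The 5p members stay above 0 and miR-125a-3p below 0 throughout.

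Among the 257 miRNAs ranked from the highest difference, miR-125a-5p held place 12, miR-99b-5p 21, miR-100-5p 23, miR-99a-5p 26, miR-125b-5p 33 and miR-125a-3p 195. The share of miRNAs past 2-fold in the higher direction differed with signal strength. When the 257 were sorted by mean signal into 3 groups of near-equal size, 22.1% of the brightest group of 86, 18.8% of the middle group of 85 and 5.81% of the dimmest group of 86 were at least 2-fold higher. At least 2-fold lower were 13 of the brightest, 18 of the middle and 14 of the dimmest group. Each group held 2 members, miR-99a-5p and miR-125b-5p the brightest, miR-100-5p and miR-125a-5p the middle, and miR-99b-5p and miR-125a-3p the dimmest. The part of signal strength in the members' differences was not tested.

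**Figure D3:**
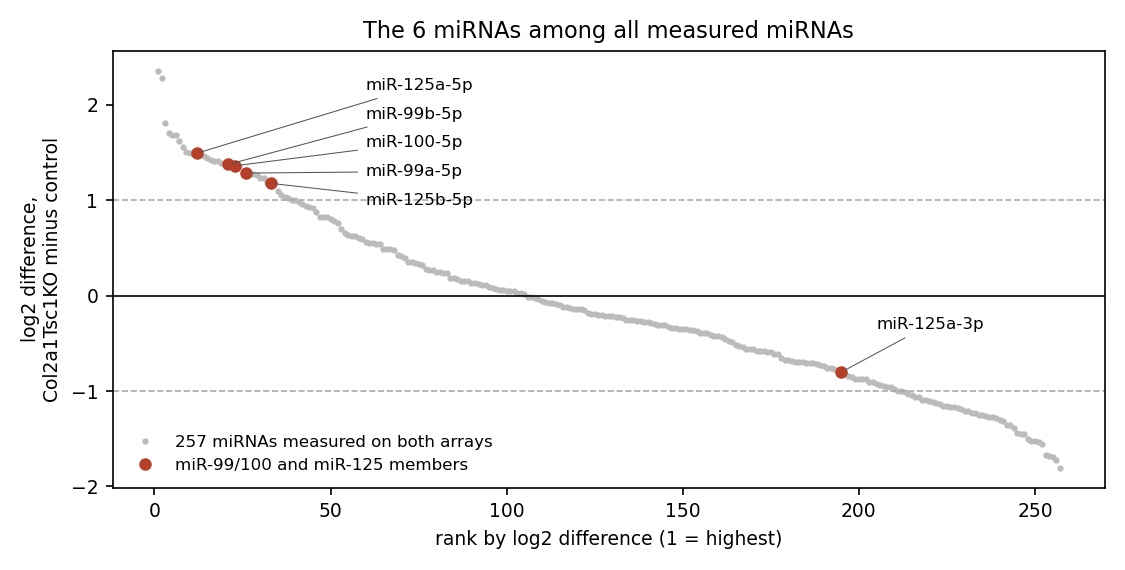
Log2 difference, Col2a1Tsc1KO minus control, of 257 miRNAs measured on both arrays against their rank (1 is the highest), with the 6 members in red and dashed lines at 2-fold. The 5p members hold places 12 to 33 and miR-125a-3p place 195.

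The 2 arms of the miR-125a hairpin stood on opposite sides. The hairpin, shown with its arms in capitals because both were measured, lies at chr17:17830812-17830879 on the plus strand of GRCm38.p6, with the 5p arm first.
Mir125a: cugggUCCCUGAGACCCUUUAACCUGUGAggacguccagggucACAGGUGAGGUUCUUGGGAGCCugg
The log2 difference of miR-125a-5p exceeded that of miR-125a-3p by 2.29 ± 0.07 (SE over spots), and by 1.31 to 3.28 under 15 alternatives. Of all hairpins, 10 had both arms measured on both arrays. In 6 of these, or 60%, the arms had opposite signs, and the gap of Mir125a came second in size after that of Mir195a, at 2.43. The median gap over the 10 hairpins was 1.15. The count of 6 rests on the scaling, since 4 of the 10 hairpins had arms of opposite sign with no scaling. The arms of Mir125a had opposite signs under all 15 alternatives. With no scaling, however, the sign of miR-125a-3p rests on its 16-base probe alone, described below.

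**Figure D4:**
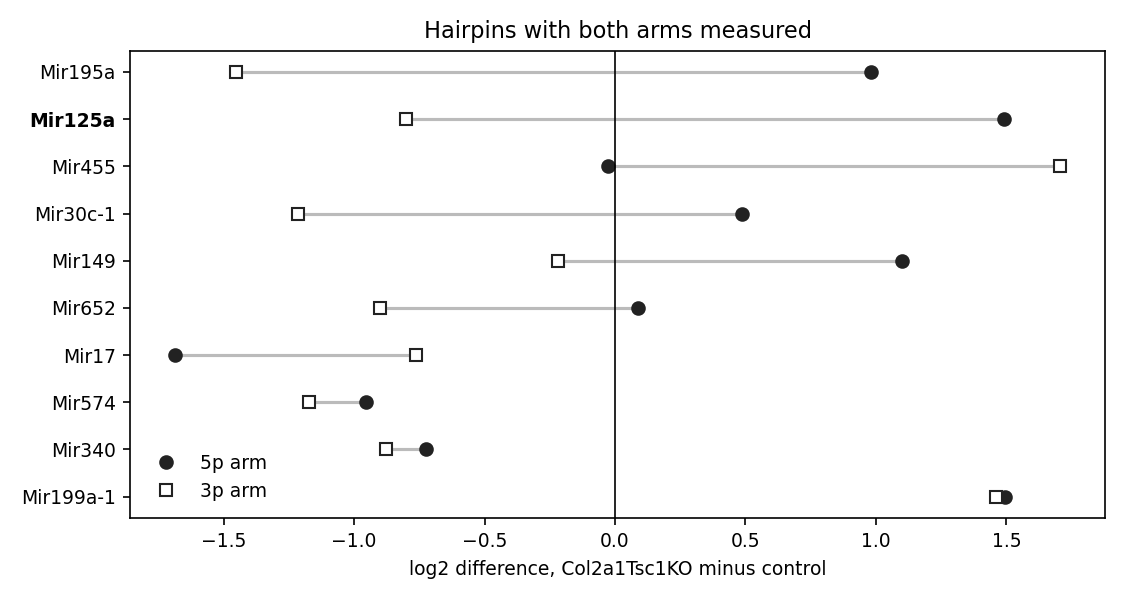
Log2 difference, Col2a1Tsc1KO minus control, of the 5p arm (filled circle) and the 3p arm (open square) of the 10 hairpins with both arms measured, ordered by the size of the gap. Mir125a, with its 5p arm at 1.49 and its 3p arm at -0.80, has the second-largest gap.

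The value of miR-125a-3p rests on probes that disagreed with each other. They are shown with the base that each adds to the next shorter one in capitals.
miR-125a-3p, 13 bases: ggctcccaagaac
miR-125a-3p, 14 bases: ggctcccaagaacC
miR-125a-3p, 15 bases: ggctcccaagaaccT
miR-125a-3p, 16 bases: ggctcccaagaacctC
All start at base 22, the 3′ end of the miRNA, and the longest reaches base 7. With the 16-base probe the scaled intensity was 73.8 on the Col2a1Tsc1KO array, with spots between 65.7 and 79.5, and 267 on the control array, with spots between 223 and 307. The spots of the arrays were far apart, and the log2 difference was -1.86 ± 0.05, or 3.62-fold lower on the Col2a1Tsc1KO array.

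The 3 shorter probes were near background and showed little of that difference. The 15-base probe had 21.3 on the Col2a1Tsc1KO array and 27.5 on the control array, a log2 difference of -0.37 ± 0.14. The 14-base probe had 21.9 on the Col2a1Tsc1KO array and 24.9 on the control array, a log2 difference of -0.18 ± 0.11. The spots of the arrays overlapped on each of these probes. The 13-base probe had 17.4 on the Col2a1Tsc1KO array and 17.9 on the control array, and it was well above background in 6 of 10 spots on the Col2a1Tsc1KO array and in 0 of 10 on the control array, so it did not enter the average. With no scaling the differences of the 3 shorter probes, from 13 to 15 bases, were 0.37, 0.23 and 0.045, and that of the 16-base probe was -1.45. The sign of the shorter probes thus depends on the scaling and that of the 16-base probe does not.

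Such disagreement was rare on these arrays. Of the 191 miRNAs with 2 or more measured probes, miR-125a-3p was the 1 whose probe differences spanned at least 1 on the log2 scale, which is 0.524% of them. Its span was 1.67, against a median of 0.083 and a next-largest span of 0.77, that of miR-706. The average over its probes, -0.80 ± 0.06, lies between probes that differ from each other by far more than its SE. With the brightest or the longest probe of each miRNA alone, miR-125a-3p was at -1.86. In the authors' deposited table it stood at 4.83 for Col2a1Tsc1KO and 5.93 for control, a difference of -1.10. It was negative under all 15 alternatives, from -1.86 to -0.36, and 5 of them put it at least 2-fold lower. No alternative run on the probes left out the 16-base probe. The brightest probe, the longest probe and probes with all spots above the background call, which are among the 5, kept that probe alone. The shared sign is therefore no separate check on the 16-base probe.

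The let-7 miRNAs from the same clusters repress growth genes through a different seed. All 3 were at least 2-fold higher on the Col2a1Tsc1KO array, against 15.6% of the 257 miRNAs. Their median was 1.36, close to the 1.32 of the members. Of other miRNAs with the let-7 seed, let-7b-5p was at 1.26. Under 2-fold were let-7f-5p at 0.82, let-7i-5p at 0.70, let-7d-5p at 0.65, let-7g-5p at 0.63 and miR-98-5p at 0.24. let-7e-5p, which has a single locus, differs from let-7a-5p by the single substitution U9G. How much let-7a-5p binds the let-7e-5p probes was not tested. let-7e-5p had scaled intensities of 468 on the Col2a1Tsc1KO array and 152 on the control array, a log2 difference of 1.62 ± 0.02. It exceeded its cluster neighbours miR-125a-5p by 0.13 ± 0.04 and miR-99b-5p by 0.25 ± 0.05. These gaps kept their direction under all 15 alternatives, though those that only add a constant to an array cannot change a gap.

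let-7c-5p had 6510.0 on the Col2a1Tsc1KO array and 2540 on the control array, a log2 difference of 1.36 ± 0.01, which exceeded that of its neighbour miR-99a-5p by 0.07 ± 0.02, with the other sign under 3 of 15 alternatives. let-7a-5p had 4950 on the Col2a1Tsc1KO array and 2424 on the control array, a log2 difference of 1.03 ± 0.01, and its neighbour miR-100-5p exceeded it by 0.33 ± 0.03. The difference of let-7a-5p was under 2-fold in 3 of 15 alternatives, at 0.66 with quantile normalization, 0.64 after normexp with quantile normalization and 0.91 in the authors' deposited table. let-7a-5p and let-7c-5p differ by the single substitution A19G and have further loci elsewhere in the genome, as miR-125b-5p has in the clusters themselves. Differences of these 3 therefore cannot be assigned to a cluster.

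**Figure D5:**
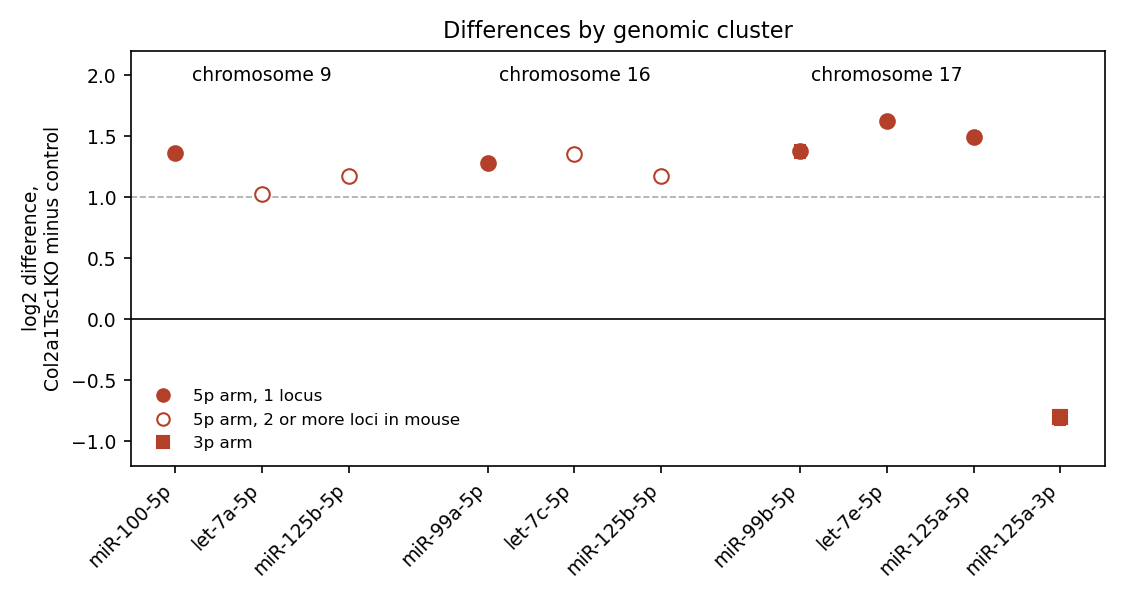
Log2 difference, Col2a1Tsc1KO minus control, with the SE over spots, of the miRNAs of the 3 clusters, in genomic order within each. Filled circles are 5p arms with a single locus, open circles 5p arms with further loci (miR-125b-5p is drawn in both of its clusters), and the square is miR-125a-3p. Every 5p arm lies above 1, and miR-125a-3p lies at -0.80.

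No other arm of the cluster hairpins passed the background call. Probes for miR-99a-3p, miR-99b-3p, miR-100-3p, miR-125b-1-3p, miR-125b-2-3p, let-7e-3p, let-7a-1-3p, let-7a-2-3p and let-7c-1-3p stayed at background level on the Col2a1Tsc1KO array and on the control array, with no spot passing the background call. Of these, let-7a-1-3p comes from a hairpin outside the 3 clusters, and in the authors' deposited table it stood at -0.93 for Col2a1Tsc1KO and at the table's floor of -3.26 for control. Both arms of miR-351, whose 5p arm shares the miR-125 seed, also had no spot past the background call. Thus 0 of these 11 miRNAs were measured on both arrays, and no fold is given for them. Of the other mature miRNAs with the miR-125 seed, miR-6367 was not measured, and miR-6394 had scaled intensities of 31.0 on the Col2a1Tsc1KO array and 36.0 on the control array. Its log2 difference was -0.22 ± 0.05, and at place 129 of the 257 miRNAs it is itself the one that sets their median. It was 0.11 in the authors' deposited table, so its sign depended on the processing. miR-125a-3p was the only 3p arm measured among those of the 3 clusters on these arrays.

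Other miRNAs reported to repress Mtor, Rptor or kinases upstream of mTORC1 were set beside the miR-99/100 family. Of 12 such miRNAs, 11 gave values, and 5 passed 2-fold with the Col2a1Tsc1KO array higher, against 15.6% of all miRNAs. None was at least 2-fold lower. Their median log2 difference was 0.93. The highest was miR-218-5p, with 134.7 on the Col2a1Tsc1KO array and 38.6 on the control array and a log2 difference of 1.80 ± 0.04. The lowest was miR-7a-5p, with 43.9 on the Col2a1Tsc1KO array and 80.4 on the control array and a log2 difference of -0.87 ± 0.04. Another of the 5, miR-101a-3p, with 172 on the Col2a1Tsc1KO array and 86.1 on the control array, lay just past the threshold, and a further one, miR-144-3p, is also on the list of red cell miRNAs.

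The miRNAs whose difference was nearest to the members' median of 1.32, over the 2 arrays, were let-7c-5p at a distance of 0.035, miR-22-3p at 0.038 and miR-143-3p at 0.046. With 2 arrays this measure holds 1 value per miRNA, and many miRNAs lie close together on it.

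Markers of cell types also differed between the arrays. Of the cartilage list, all 4 members were measured, with a summed scaled intensity of 5268 on the Col2a1Tsc1KO array and 2322 on the control array and a median log2 difference of 1.19, running from -0.03 for miR-455-5p to 1.71 for miR-455-3p. All 4 muscle miRNAs were measured, with sums of 737 on the Col2a1Tsc1KO array and 1410 on the control array and a median of -0.97, with miR-206-3p apart at 0.05. All 4 leukocyte miRNAs were measured, with sums of 4454 on the Col2a1Tsc1KO array and 9633 on the control array and a median of -0.77. Most of these leukocyte sums was miR-223-3p, with 3632 on the Col2a1Tsc1KO array and 8163 on the control array, while miR-150-5p differed in the other direction, by 0.64. In the fibroblast and smooth muscle list 1 of 3 members was measured, miR-143-3p at 1.37, while miR-145a-5p was below the background call on the control array and miR-145a-3p on both. The red cell list had 2 of its 3 members measured, with sums of 3472 on the Col2a1Tsc1KO array and 2340 on the control array. Its median of 1.03 lay between miR-451a at 0.55, which made up most of the sums, and miR-144-3p at 1.51. The endothelial list had 2 of 2 measured, with a median of 0.25. The bone list had 2 of 2, with a median of -0.33 between miR-2861 at 0.11 and miR-3960 at -0.76. With no scaling every difference in these lists is 0.41 higher, so the sign of small ones depends on the scaling. Each sum weighs the brightest probes most, and intensity depends on the probe, so the sums do not measure the amount of a cell type. Fewer cells of a type and less RNA per cell cannot be told apart in such samples, and the part of cell makeup in the members' differences was not tested.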

How the data were processed

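Total RNA labelled with Cy3 was measured on 1 Col2a1Tsc1KO and 1 control array. The authors used Agilent Feature Extraction 10.7, per the submitters' processing notes, and the deposited intensity of each spot had a fitted spatial background surface subtracted and no scaling between arrays, per the file headers. A table of log2 values deposited by the authors holds 1 value per miRNA, and how it was made was not stated. Its column medians were -3.32 for Col2a1Tsc1KO and -3.26 for control, which are also its floors. Over 304 miRNAs its values rose with the log2 of the summed probe signals with a slope of 1.02 and a correlation of 0.982 for Col2a1Tsc1KO, and a slope of 1.06 and a correlation of 0.994 for control, so it is on a log2 scale in the direction of the signals. Some values recurred in both columns for different miRNAs. Examples are 11.30 for miR-125b-5p in Col2a1Tsc1KO and let-7a-5p in control, and 12.62 for let-7c-5p in Col2a1Tsc1KO and miR-223-3p in control. Quantile normalization between the arrays gives such shared values, but whether the authors used it was not stated.

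Outlier spots were dropped and log2 intensities averaged over the spots of a probe. The 75th percentile of the 476 probes with over 50% of spots well above background on both arrays served as the scaling factor. Single arrays allow no p-value, and their number limits the precision. Another 13 ways of processing covered scaling, background correction (limma 3.58.1, normexp with an offset of 50), summary, filters, outliers and the deposited log2 values, and 2 more (totals summed from the probes, and the longest probe alone) were chosen after seeing the data. The steps were run on simulated data with known changes, made from spots of the control array alone. Those data cannot test the scaling or the variation between arrays. Python 3.11.15, pandas 2.3.3 and numpy 2.4.6 were used.

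The members and lists were chosen with earlier results of these data known. The named miRNAs were all members, their cluster partners, other arms and seed relative, the highest and lowest of the mTOR list and the 3 miRNAs nearest to the members' median. Others were named after their values were seen (miR-101a-3p, miR-706, miR-6367, miR-6394, Mir195a and the miRNAs with the let-7 seed other than the cluster partners). Cell type markers were those of cartilage, skeletal muscle, leukocytes, red cells, endothelium, fibroblasts and smooth muscle, and bone. One entry of the list of other arms and 1 red cell entry had no probe by that name and were not analysed here.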

Additional observations from a re-analysis of the deposited data

How the results depend on the processing

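The 5p members were positive and miR-125a-3p negative under all 15 alternatives. For miR-125a-3p no alternative run on the probes left out its 16-base probe, so its shared sign is no separate check on that probe. The members' median log2 difference, 1.32, was 1.76 when all probes set the 75th percentile, 1.44 under median scaling, 1.73 unscaled, 1.69 under spike-in scaling, 0.90 after normexp with quantile normalization, 1.79 with the software's total gene signals, 1.43 in the authors' deposited table and 1.49 with totals summed from the probes. In the same order the let-7 partners' median, 1.36, was 1.79, 1.47, 1.77, 1.72, 1.03, 1.85, 1.27 and 1.55, and with quantile normalization alone it was 1.05. After normexp 2 members (miR-99a-5p and miR-100-5p), in place of 5, were at least 2-fold higher. No member was at least 2-fold lower, but 1 was when the brightest probe, the longest probe, probes with all spots above the background call, the deposited table or totals summed from the probes were used. That 1 was miR-125a-3p. Of all miRNAs, 40 were at least 2-fold higher and 45 lower. These counts were 60 higher and 13 lower when all probes set the percentile, 59 and 13 unscaled, 55 and 14 under spike-in scaling, 16 and 9 after normexp, and 80 and 24 for software totals. The median of all miRNAs, -0.22, moved up by 0.12 under median scaling, by 0.15 with dim probes kept at a floor, by 0.20 to 0.22 under quantile normalization, normexp, the deposited table and summed totals, and by 0.36 to 0.51 under spike-in scaling, unscaled, with all probes setting the percentile and for software totals. A constant added by scaling moves every difference alike, and for the other alternatives the cause was not tested. The software's totals differed by over 5% from the sum of their probes for 99 detected miRNAs on the Col2a1Tsc1KO array and 89 on the control array, of which 0 were members. No paired analysis was possible because each group holds 1 array. Signals near background limit miR-99b-5p and the shorter probes of miR-125a-3p.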
